A study of Mus musculus with 12 samples.

Results

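The replication-dependent histone genes lie in a few chromosomal clusters and carry names that begin with Hist1h, Hist2h, Hist3h or Hist4h on the array used here. All array probes that were not controls and carried such a name were taken, probes not well above background throughout at least 1 group were dropped, and the brightest remaining probe stood for its gene. This gave 41 tested genes of 49 named on the array, among 17595 tested genes in all. They were 4 of 6 linker histone H1 genes, 13 of 14 H2A genes, 7 of 12 H2B genes, all 8 H3 genes and all 9 H4 genes. By cluster, 30 belonged to Hist1, 9 to Hist2, 1 to Hist3 and 1 to Hist4. The 8 genes that did not pass were Hist1h1d, Hist1h1t, Hist1h2ac, Hist1h2bg, Hist1h2bp, Hist1h2bq, Hist3h2ba and Hist3h2bb-ps. Of the 41, 39 were above background on all 12 arrays, Hist1h2bb was so on 10 and Hist1h3a on 9.

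The cells were RAW264.7, an established mouse macrophage line made with Abelson leukaemia virus, which divides continuously in culture. Each of 4 groups had 3 arrays: palmitic acid (PA, 0.2 mM), palmitic acid with recombinant FABP4 (PA plus FABP4, 0.2 mM and 200 nM), FABP4 alone (200 nM) and untreated control. All 4 groups were kept for 24 h in medium with 0.5% fatty acid-free bovine serum albumin, after growth in 10% serum. FABP4 carries fatty acids inside adipocytes and macrophages and is also secreted, and palmitic acid is a saturated fatty acid. Nothing in the labels says that replicate arrays were separate cultures, so the p-values rest on a spread between arrays that could be purely technical.

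Core histones H2A, H2B, H3 and H4 form the nucleosome, and H1 binds the DNA between nucleosomes. Most clustered histone genes are switched on as DNA is copied in S phase. Their mRNAs end in a conserved stem-loop in place of a poly(A) tail, and the stem-loop binding protein SLBP carries them through processing, translation and decay. Some clustered histone genes can also give longer polyadenylated mRNAs that run past the stem-loop.

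Because the members resemble each other, the probe letters set which transcripts a spot can report. The stem-loop, or an edge of it, lay in 8 of the 41 probes, each 60 bases long. The 6 probes that held all 16 bases of it are shown as windows of at most 30 bases from the probe, 5′ to 3′, with the stem-loop in capitals (probe coordinates in mm9, from the array files).
Hist1h3a: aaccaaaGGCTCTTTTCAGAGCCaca
Hist1h3g: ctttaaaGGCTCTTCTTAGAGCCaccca
Hist1h3i: aacaaaaGGCTCTTTTCAGAGCCccctc
Hist1h4m: aactaaaGGCCCTTTTCAGGGCCatccaa
Hist2h2bb: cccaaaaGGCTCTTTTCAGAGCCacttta
Hist2h2aa1: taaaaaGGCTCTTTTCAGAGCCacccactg
In 5 of these the probe stopped within 6 bases after the stem-loop. The Hist2h2aa1 probe ran on for 38 bases (chr3:96049949-96050008, plus strand). A further probe, for Hist1h2ae, began inside the stem-loop and had 48 bases after it, and the Hist1h2ab probe ended inside it.

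The H2A probes show how far members share a target. The 5 below end at the stop codon of the coding sequence, and capitals mark the bases that differ from the letter held by a majority of the probes that reach that place in the coding sequence.
Hist1h2af: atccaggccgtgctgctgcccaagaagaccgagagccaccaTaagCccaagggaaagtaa
Hist1h2ah: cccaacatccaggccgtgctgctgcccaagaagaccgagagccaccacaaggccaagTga
Hist1h2ak: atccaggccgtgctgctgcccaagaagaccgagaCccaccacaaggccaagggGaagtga
Hist1h2an: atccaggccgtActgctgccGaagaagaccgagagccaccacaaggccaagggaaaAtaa
Hist2h2aa2: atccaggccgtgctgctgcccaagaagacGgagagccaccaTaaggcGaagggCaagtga
The probes lie at chr13:23626113-23626172 (plus) for Hist1h2af, chr13:22127035-22127094 (minus) for Hist1h2ah, chr13:21845304-21845363 (minus) for Hist1h2ak, chr13:21878695-21878754 (minus) for Hist1h2an and chr3:96049837-96049896 (plus) for Hist2h2aa2. They differ from the majority letters at 1 to 4 places. Hist1h2af shares 55 of 60 bases with each of Hist1h2ak, Hist1h2an and Hist2h2aa2, so these spots can capture each other's transcripts and their values are uncertain as measures of single genes. Of all 41 probes, 10 shared at least 45 of 60 bases with another member's probe, and 21 shared under 30 with their nearest. Probes were compared with probes and not with the members' transcripts. A low value therefore does not show that a probe reads a single gene. Probes on different stretches of like coding sequences score low too. The probe of Hist1h1c, on which several results below turn, shared at most 26.

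Across the 12 arrays 42.8% to 46.7% of 59305 non-control spots were well above background and none was saturated. Values are Agilent processed intensities divided by each array's 75th percentile and multiplied by the geometric mean of those percentiles, 273.4, in arbitrary units, and are called scaled intensities. An intensity depends on the probe as well as on the mRNA, so it is compared between arrays for 1 probe and not between genes. There were 2 slides. All PA and PA plus FABP4 arrays and FABP4 arrays 2 and 3 were on slide 2, whereas FABP4 array 1 and all 3 controls were on slide 1. PA was therefore set against control entirely across slides, while PA plus FABP4 and PA shared slide 2. On slide 2, FABP4 arrays 2 and 3 and PA arrays 1 and 2 were in row 1. PA array 3 and all PA plus FABP4 arrays were in row 2, as were all arrays of slide 1. Within slide 2, PA plus FABP4 and FABP4 thus lay in different rows. FABP4 was the only group on both slides. A fit with slide as a fixed block thus takes the slide difference from FABP4 array 1 against FABP4 arrays 2 and 3. Any deviation of that array enters the blocked values. Of 11 macrophage markers (Cd68 and Csf1r among them) all 11 were tested, and of 8 markers of other cells only Pecam1 and Cd3e were.

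**Figure D1:**
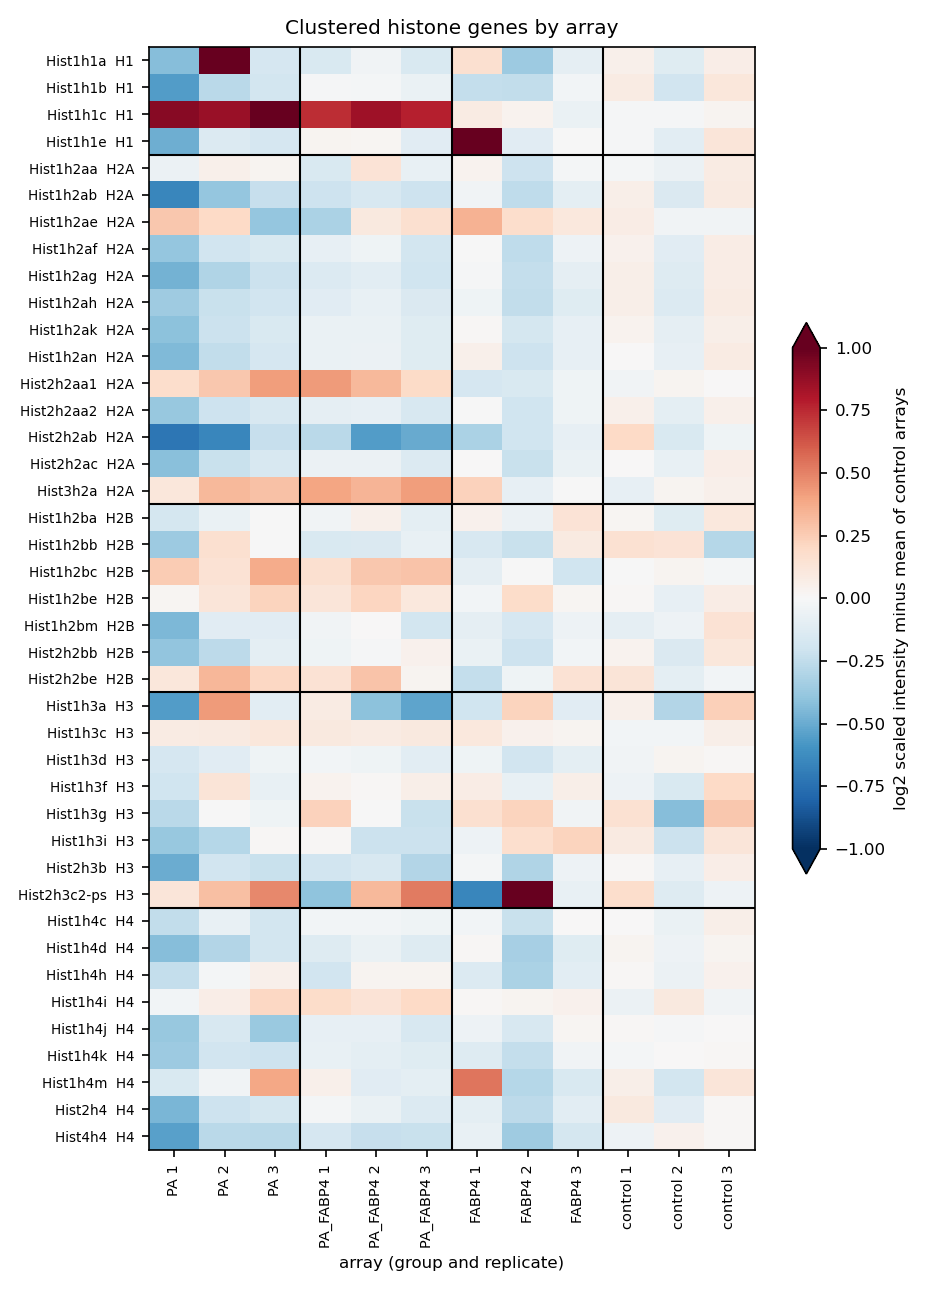
Log2 scaled intensity of the 41 clustered histone genes (rows, by class) on 12 arrays (columns, by group), as the difference from the mean of the 3 control arrays; colours stop at 1 in either direction. Hist1h1c is high on all 6 arrays with palmitic acid, most H2A and H4 genes are low on PA array 1, and 3 single spots stand out, Hist1h1a on PA array 2, Hist1h1e on FABP4 array 1 and Hist2h3c2-ps on FABP4 array 2.

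The effect of palmitic acid on the histone genes was read from PA against control. In limma, 9 of 41 members passed an adjusted p of 0.05, against 8.61% of all tested genes. Hist1h1c, Hist2h2aa1 and Hist1h2bc rose (7.32% of members, against 4.88% of all genes), and Hist1h4j, Hist4h4, Hist1h4k, Hist1h2ab, Hist1h2ag and Hist2h2ab fell (14.6% of members, against 3.73% of all genes). The median log2 fold change was -0.17 over the members and 0.00 over all genes, and 28 of 41 members were negative. A fit with slide as a block called 1 of 41, Hist1h1c, against 0.79% of all genes, and the member median was -0.09. The slide difference in this and the other blocked fits rests on FABP4 array 1.

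Hist1h1c, which encodes the linker histone H1.2, changed most of the members that passed the test. Its scaled intensity was 333, 324 and 357 on PA arrays, 296, 320 and 304 on PA plus FABP4 arrays, 188, 182 and 170 on FABP4 arrays and 176, 176 and 181 on control arrays. Every array with palmitic acid was above every array without it, and the 2 groups without it overlapped. The group means were 338 ± 16.9 with PA and 178 ± 2.98 in control, and 307 ± 12.3 with PA plus FABP4 and 180 ± 9.1 with FABP4 (SD, n = 3 each). The log2 fold change was 0.93 ± 0.06 for PA against control (limma, adjusted p = 3.56e-05) and 0.77 ± 0.06 for PA plus FABP4 against FABP4 (limma, adjusted p = 0.000137; errors on log2 fold changes are SE throughout). Blocked by slide these were 1.02 ± 0.10 (limma, adjusted p = 0.00222) and 0.80 ± 0.06 (limma, adjusted p = 0.000499). On slide 2 alone PA was 0.94 ± 0.07 above FABP4 (limma, adjusted p = 0.0469), and among the 4 arrays in the first row of that slide, 2 a group, it was 0.90 ± 0.08 (limma, adjusted p = 0.212, with no gene passing on those 4 arrays). The probe lies at chr13:23832018-23832077 (mm9, plus strand).

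The 3 other H1 genes tested did not pass. Hist1h1b, encoding H1.5, had 1030, 1260 and 1340 on PA arrays, against 1610, 1330 and 1640 on control arrays, which overlapped. Its log2 fold change was -0.34 ± 0.11 (limma, adjusted p = 0.0843). Hist1h1a had 143, 517 and 171 on PA arrays, against 199, 177 and 201 on control arrays, so that a single array set its mean. Hist1h1e had 5270, 6720 and 6590 on PA arrays, against 7320, 6860 and 8030 on control arrays, and the 2 groups did not overlap. Its SE was 0.24 because FABP4 array 1 read 14800 beside 6820 and 7360 on the other FABP4 arrays, and that spread enters the shared error.

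Of the 13 H2A genes, 1 rose and 3 fell with PA, and 9 were negative, with a median log2 fold change of -0.26. H2A is the nucleosome partner of H2B. Hist1h2ab had 6710, 8080 and 8990 on PA arrays, against 11000, 9520 and 11200 on control arrays, a log2 fold change of -0.42 ± 0.11 (limma, adjusted p = 0.038). Hist1h2ag had 43100, 48500 and 51700 on PA arrays, against 62400, 54600 and 62900 on control arrays, a log2 fold change of -0.33 ± 0.09 (limma, adjusted p = 0.0418). Its probe shared 46 bases with the Hist1h2an probe and 45 with the Hist1h2ak probe. Its values are thus also uncertain as a measure of a single gene. The dimmer Hist2h2ab had 43.3, 45.6 and 61.1 on PA arrays, against 82.1, 64.2 and 69.4 on control arrays, a log2 fold change of -0.53 ± 0.14 (limma, adjusted p = 0.0449). In all 3 genes the groups did not overlap, and PA array 1 was the lowest of the PA arrays. The 5 H2A genes whose probes are printed above ranged in log2 fold change from -0.29 (Hist1h2an) to -0.24 (Hist1h2af), and none passed.

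Hist2h2aa1 went the other way. It had 1110, 1180 and 1310 on PA arrays, against 957, 1000 and 985 on control arrays, and 1320, 1230 and 1120 on PA plus FABP4 arrays, against 874, 882 and 951 on FABP4 arrays. In both pairs all palmitic acid arrays were above their counterparts. The log2 fold change was 0.28 ± 0.08 for PA against control (limma, adjusted p = 0.0455) and 0.44 ± 0.08 for PA plus FABP4 against FABP4 (limma, adjusted p = 0.0123). Hist2h2aa2, whose coding probe lies in the same stretch of chromosome 3 just before the Hist2h2aa1 probe, had 42100, 47600 and 49100 on PA arrays, against 56800, 51200 and 56700 on control arrays, a log2 fold change of -0.25 ± 0.08 (limma, adjusted p = 0.0703). The log2 ratio of the Hist2h2aa1 to the Hist2h2aa2 spot was -5.28 ± 0.06 with PA and -5.81 ± 0.11 in control, a difference of 0.53 (SD, n = 3 each). It was -5.38 ± 0.08 with PA plus FABP4 and -5.84 ± 0.11 with FABP4, a difference of 0.47 (SD, n = 3 each). The ratio's own size depends on both probes, and what was compared is its difference between groups. This pair was chosen after its values were seen, and each difference had p = 0.1 in a two-sided exact permutation test, the smallest that 3 arrays against 3 allow. With FABP4 alone the ratio differed from control by -0.04 (exact permutation p = 0.8). These probes end on opposite sides of the stem-loop printed above, and whether longer transcripts of these genes moved was not tested. The Hist2h2aa2 probe shares 55 of 60 bases with the Hist1h2af and Hist1h2ak probes, so the ratio need not compare parts of a single gene's transcripts. Hist1h2ae, whose probe also ran well past the stem-loop, was dimmer. It was 0.03 ± 0.17 for PA against control and -0.23 ± 0.17 for PA plus FABP4 against FABP4.

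Among 7 H2B genes Hist1h2bc was the 1 that passed. It had 932, 865 and 1010 on PA arrays, against 778, 797 and 770 on control arrays, and 871, 942 and 954 on PA plus FABP4 arrays, against 736, 778 and 682 on FABP4 arrays. The groups of each pair did not overlap. The log2 fold change was 0.26 ± 0.07 for PA against control (limma, adjusted p = 0.0484) and 0.33 ± 0.07 for PA plus FABP4 against FABP4 (limma, adjusted p = 0.0292). The probe lies at chr13:23784254-23784313 (mm9, plus strand) and shared at most 24 of 60 bases with another member's probe. The other 6 H2B genes had log2 fold changes from -0.25 (Hist2h2bb) to 0.21 (Hist2h2be) for PA against control.

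Of 9 H4 genes 3 fell with PA and none rose, with a median log2 fold change of -0.25. H4 pairs with H3 in the core of the nucleosome, and the H4 genes encode the same protein. Hist1h4j had 1120, 1310 and 1130 on PA arrays, against 1470, 1450 and 1460 on control arrays, a log2 fold change of -0.30 ± 0.07 (limma, adjusted p = 0.0254). Hist4h4, the only gene of its cluster, had 4930, 5950 and 5940 on PA arrays, against 6930, 7420 and 7230 on control arrays, a log2 fold change of -0.36 ± 0.09 (limma, adjusted p = 0.0308). Hist1h4k had 30000, 33900 and 33400 on PA arrays, against 38100, 38800 and 39000 on control arrays, a log2 fold change of -0.25 ± 0.06 (limma, adjusted p = 0.0343). No PA array of these 3 genes reached the lowest control array. The second probe of Hist1h4k, which was not used for the gene, gave -0.29 ± 0.08. The second probe of Hist2h4, above background on 5 arrays, gave -1.68 ± 0.70, where the probe used gave -0.28 ± 0.09 (limma, adjusted p = 0.0718). With 5 such arrays that second probe can have entered through a single group only. Its value is therefore not independent of the filter, and it includes arrays where the spot was not well above background.

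None of the 8 H3 genes passed. The one with the smallest p, Hist2h3b, had 1670, 2070 and 2020 on PA arrays, against 2380, 2230 and 2470 on control arrays, which did not overlap. Its log2 fold change was -0.30 ± 0.10 (limma, adjusted p = 0.085). Hist2h3c2-ps carries the ending of a pseudogene in its array name and was matched to the RefSeq gene now named H3c15. It had 566 on FABP4 array 2 beside 43.5 and 65.1 on the other FABP4 arrays, and its SE of 0.75 was the largest among the members.

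**Figure D2:**
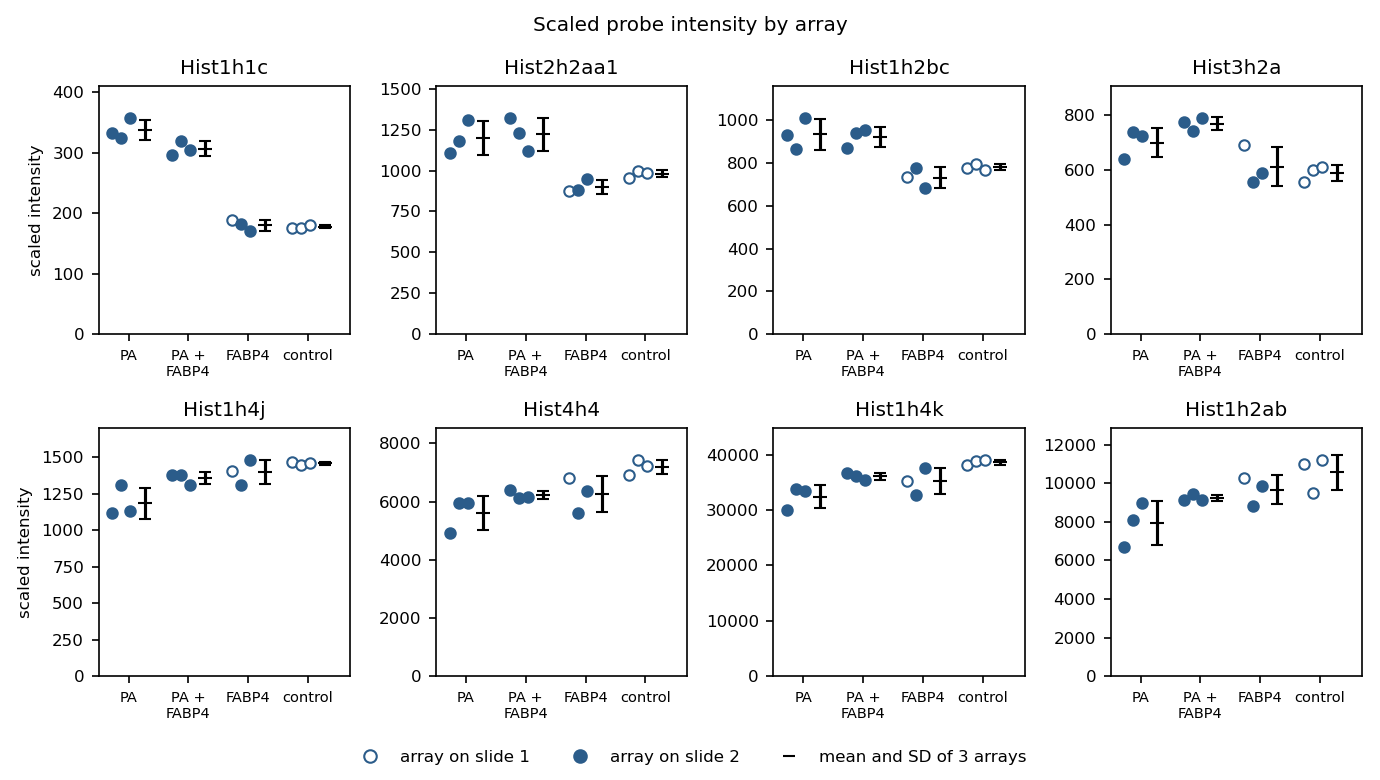
Scaled intensity (arbitrary units, axes from 0) of 8 histone genes on each of 12 arrays, by group, with open points for slide 1 and filled points for slide 2, and bars for the mean and SD of 3 arrays. Hist1h1c, Hist2h2aa1 and Hist1h2bc are higher with palmitic acid whether or not FABP4 was present, while Hist1h4j, Hist4h4, Hist1h4k and Hist1h2ab are lowest with PA alone, and each control group lies on slide 1.

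PA and control did not overlap in 24 members, 5 above (17.5% of all genes; the 3 that passed, Hist3h2a and Hist1h3c) and 19 below (16.4% of all genes). At an unadjusted p of 0.05, 4 members were higher (14.4% of all genes) and 18 lower (12.1% of all genes). The lower members include Hist1h2af, Hist1h2ah, Hist1h2ak, Hist1h2an and Hist2h2aa2, whose like probes are printed above. These counts, and the member counts of the later comparisons, are therefore counts of spots, some of which may report the same transcripts. PA array 1 was the lowest of the 3 PA arrays in 38 of 41 members, and it also had the highest 75th percentile of the 12 arrays before scaling, 315.3 beside 250.1 to 302.3. Control array 2 was the lowest control array in 31 members. Without PA array 1 the calls were Hist1h1c and Hist2h2aa1, and the member median was -0.11. Leaving out a control array gave 1, 5 and 1 calls for arrays 1, 2 and 3, and leaving out PA array 2 or 3 gave 3 and 5. Leaving out a PA plus FABP4 array gave 4, 3 and 5 calls, and leaving out FABP4 array 1, 2 or 3 gave 15, 8 and 7. Hist1h1c passed in all 12 of these fits, with log2 fold changes of 0.89 to 0.96, while each of the other 8 calls ended in 5 to 10 of them. The split between the directions depended on the scaling: 4 members were higher and 15 lower after quantile normalization (10.5% of all genes called), 4 higher and 12 lower when the percentile was taken over probes above background on all arrays (10.3%), and 6 higher and 1 lower with no scaling (17.4%), where the median was 0.17 over all genes and 0.00 over the members.

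**Figure D3:**
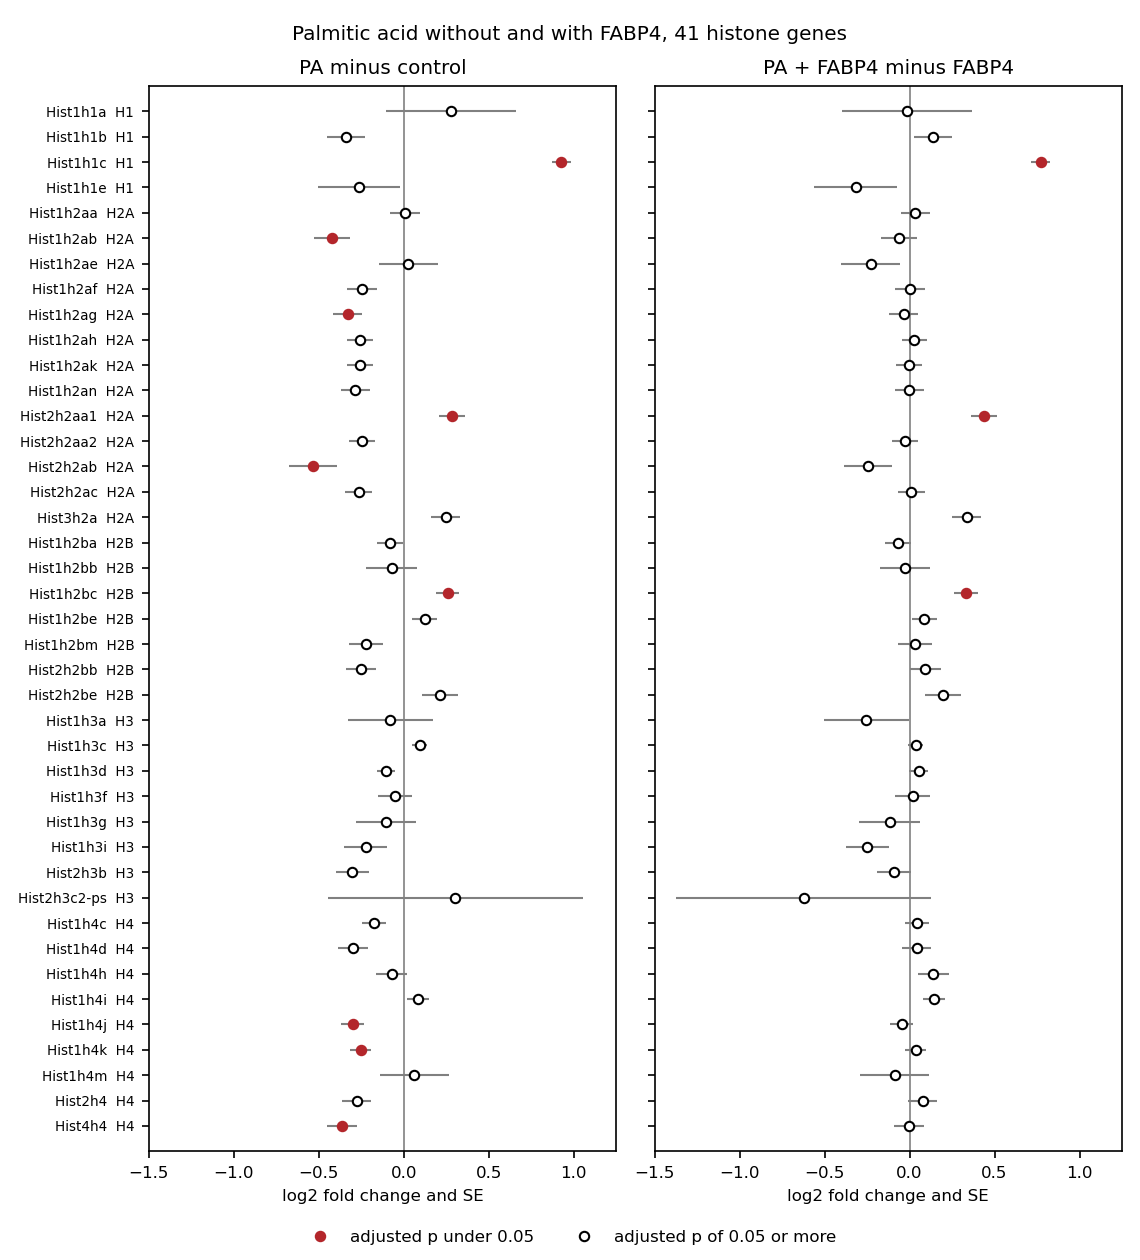
Log2 fold change with SE (limma, 12 arrays) of 41 histone genes for PA minus control (left) and PA plus FABP4 minus FABP4 (right), with filled points where the adjusted p was under 0.05. On the left 3 genes are filled above 0 and 6 below, and on the right 3 above 0 and none below.

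The effect of palmitic acid was also read in the presence of FABP4, from PA plus FABP4 against FABP4. Of 41 members 3 passed, against 3.81% of all genes. All 3 were higher, namely Hist1h1c, Hist2h2aa1 and Hist1h2bc with the values given above (7.32% of members, against 2.86% of all genes), and none was lower (0.943% of all genes). At an unadjusted p of 0.05, 5 members were higher (15.2% of all genes) and none lower (5.67% of all genes). The median log2 fold change was 0.01 over the members and 0.05 over all genes. Groups did not overlap in 5 members, all with PA plus FABP4 above (19.3% of all genes; Hist1h4i is the member not otherwise named here), and in none below (6.98% of all genes).

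Hist3h2a, the H2A gene of the Hist3 cluster, was the fourth by p-value. It had 775, 743 and 788 on PA plus FABP4 arrays, against 692, 556 and 587 on FABP4 arrays, and the lowest of the first was above the highest of the second. The log2 fold change was 0.34 ± 0.09 (limma, adjusted p = 0.0627). FABP4 array 1, the array on slide 1, was the high one. Blocked by slide the difference was 0.43 ± 0.07 (limma, adjusted p = 0.0178), and on slide 2 alone 0.43 (limma, adjusted p = 0.0482). For PA against control it was 0.25 ± 0.09 (limma, adjusted p = 0.103). Its probe lies at chr11:58768954-58769013 (mm9, plus strand).

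With slide as a block 3 members passed in this comparison (3.35% of all genes), Hist1h1c, Hist2h2aa1 at 0.42 ± 0.09 (limma, adjusted p = 0.0343) and Hist3h2a, while Hist1h2bc was 0.34 ± 0.08 (limma, adjusted p = 0.0567). On slide 2 alone, with 2 FABP4 arrays, Hist1h1c at 0.80 (limma, adjusted p = 0.00483) and Hist3h2a passed. There the FABP4 arrays were in row 1 and the PA plus FABP4 arrays in row 2, so palmitic acid and row cannot be told apart. Leaving out PA plus FABP4 array 1 or 2 left Hist1h1c as the only call. The call of Hist2h2aa1 ended without FABP4 array 2 (adjusted p = 0.0519) as well, and that of Hist1h2bc in 6 of 12 such fits, with adjusted p from 0.0269 to 0.107 over all 12.

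The 6 genes that fell with PA alone did not pass here. Hist1h4j had 1380, 1380 and 1310 on PA plus FABP4 arrays, against 1410, 1310 and 1480 on FABP4 arrays, a log2 fold change of -0.05 ± 0.07. Hist4h4 had 6400, 6130 and 6170 on PA plus FABP4 arrays, against 6820, 5620 and 6350 on FABP4 arrays, a log2 fold change of 0.00 ± 0.09. Both pairs overlapped. Whether the effect of palmitic acid differed with FABP4 was tested by the interaction, which called no member and no gene (0% of 17595), with a smallest adjusted p of 0.647 among members. At an unadjusted p of 0.05, 13 members were positive (4.99% of all genes) and none negative (1.92% of all genes). The median interaction was 0.16 over the members and 0.04 over all genes. The smallest p was that of Hist1h4k, 0.29 ± 0.09, followed by Hist1h1b, 0.48 ± 0.16, Hist4h4, 0.36 ± 0.12, and Hist2h4, 0.36 ± 0.12. With no scaling between arrays the median interaction was -0.11 over the members and -0.23 over all genes.

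FABP4 without palmitic acid was set against control. No member passed, against 0.0171% of all genes, which is 2 genes higher (0.0114%) and 1 lower (0.00568%). At an unadjusted p of 0.05, 1 member was lower, Hist4h4 (3.84% of all genes), and none higher (3.4% of all genes). Hist4h4 had 6820, 5620 and 6350 on FABP4 arrays, against 6930, 7420 and 7230 on control arrays, a log2 fold change of -0.20 ± 0.09 (limma, adjusted p = 0.669). The arrays did not overlap. Hist1h4k had 35300, 32800 and 37600 on FABP4 arrays and was below the control arrays given above, at -0.13 ± 0.06 (limma, adjusted p = 0.705). Hist1h3d, an H3 gene, had 59300, 53400 and 56900 on FABP4 arrays, against 59400, 62100 and 61500 on control arrays, at -0.11 ± 0.05 (limma, adjusted p = 0.721). Hist1h4h had 161, 142 and 164 on FABP4 arrays, against 178, 170 and 182 on control arrays, at -0.18 ± 0.09 (limma, adjusted p = 0.731). In these 3 genes too FABP4 arrays lay below control arrays without overlap, Hist1h3d by 59300 to 59400. In all, 5 members were below without overlap (6.41% of all genes), the last being Hist2h2aa1, and 1 was above (4.02% of all genes), Hist1h2ae. The member median was -0.08 and that of all genes -0.01. With no scaling between arrays these medians were 0.06 and 0.13, and Hist1h4k was 0.01 and Hist1h3d 0.03. In the fit blocked by slide Hist1h1e passed at 1.00 ± 0.14 (limma, adjusted p = 0.0193), where 0.585% of all genes did. FABP4 array 1, which read 14800 for Hist1h1e beside 6820 and 7360 on slide 2, is the only FABP4 array on the slide of the controls.

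FABP4 in the presence of palmitic acid, PA plus FABP4 against PA, lay within slide 2. PA arrays 1 and 2 were in its row 1 and the other arrays of both groups in row 2. No member and no gene passed (0% of 17595). At an unadjusted p of 0.05, 8 members were higher (4.65% of all genes) and 1 lower (1.24% of all genes). Hist1h4j had 1380, 1380 and 1310 on PA plus FABP4 arrays, against 1120, 1310 and 1130 on PA arrays, which met at 1310, a log2 fold change of 0.20 ± 0.07 (limma, adjusted p = 0.804). Hist2h2bb, an H2B gene, had 2490, 2550 and 2650 on PA plus FABP4 arrays, against 1950, 2140 and 2400 on PA arrays, at 0.25 ± 0.09 (limma, adjusted p = 0.804). Hist1h1b had 1510, 1500 and 1450 on PA plus FABP4 arrays, against 1030, 1260 and 1340 on PA arrays, at 0.31 ± 0.11 (limma, adjusted p = 0.804). The arrays of the last pair of genes did not overlap. Hist1h1c was the member that was lower, at -0.14 ± 0.06 (limma, adjusted p = 0.804), and its PA plus FABP4 arrays were all below its PA arrays. PA plus FABP4 lay above PA without overlap in 15 members (11.4% of all genes) and below in 1 (3.11% of all genes). The median was 0.09 over the members and 0.03 over all genes, and with no scaling -0.04 and -0.10. PA array 1, the lowest PA array in 38 members, enters this comparison too, and its part in these counts was not tested. The median SD of the members' log2 values within a group was 0.13 with PA, 0.06 with PA plus FABP4, 0.12 with FABP4 and 0.09 in control.

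Palmitic acid and FABP4, each without the other, share the same 3 control arrays, as PA plus FABP4 against FABP4 and FABP4 against control share the FABP4 arrays. PA was therefore also set against FABP4 on slide 2, where 3 PA arrays and 2 FABP4 arrays lie, a comparison chosen after the data were seen. Hist1h1c passed among the members, as did 20 of 17595 genes in all. The member median was -0.10 and that of all genes 0.02. Among the other members called for PA against control, those that had fallen ranged there from -0.39 (Hist2h2ab) to -0.10 (Hist4h4), against -0.53 and -0.36 for the same genes across slides. Hist2h2aa1 was 0.38 ± 0.09 and Hist1h2bc 0.36 ± 0.10, against 0.28 and 0.26 across slides. Whether the values within and across slides differ was not tested.

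None of 23 tested factors of histone mRNA transcription, processing and decay passed in any comparison, where PA against control called 8.61% and PA plus FABP4 against FABP4 3.81% of all genes. Slbp, the stem-loop binding protein, had 441, 421 and 429 on PA arrays, against 429, 457 and 422 on control arrays, a log2 fold change of -0.02 ± 0.08 (limma, adjusted p = 0.903). Blocked by slide the Slbp value was 0.28 ± 0.08 (limma, adjusted p = 0.155). Npat, the coactivator of clustered histone genes, did not pass the background filter. The smallest p-values for PA against control belonged to Srrt at 0.18 ± 0.07, Cpsf2, a subunit of the complex that cleaves histone pre-mRNA, at -0.23 ± 0.09, and Zfp473, the U7 snRNP-associated zinc finger protein, at -0.40 ± 0.17, with adjusted p of 0.132, 0.135 and 0.169 in limma. For PA plus FABP4 against FABP4 they belonged to Lsm10, of the U7 snRNP, at 0.15 ± 0.06, Sympk at 0.23 ± 0.09 and Cpsf2 at -0.23 ± 0.09, with adjusted p of 0.164, 0.176 and 0.179. For FABP4 against control the smallest were those of Sympk at -0.22 ± 0.09, Zfp473 at -0.28 ± 0.17 and Slbp at -0.12 ± 0.08, with adjusted p of 0.656, 0.792 and 0.81.

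Among 11 tested variant histones, which lie outside the clusters, H1fx rose with PA (4.88% of all genes) and H2afx and Cenpa fell (3.73% of all genes). H2afx, the variant phosphorylated at DNA breaks, had 1380, 1300 and 1480 on PA arrays, against 2120, 1940 and 1990 on control arrays, a log2 fold change of -0.54 ± 0.08 (limma, adjusted p = 0.00476). Cenpa, the H3 variant of centromeres, had 1750, 1850 and 1770 on PA arrays, against 2100, 2040 and 2090 on control arrays, at -0.21 ± 0.05 (limma, adjusted p = 0.0321). H1fx was above background on all 3 PA arrays and on no control array. It was at least 1.59-fold higher with PA, the control side being taken at the lowest signal above background where the spot was dimmer. That bound was not tested. The fit on the measured values, control arrays below background included, gave an adjusted p of 0.012 in limma, and 0.218 with slide as a block. The spot was above background on 2 PA plus FABP4 and 2 FABP4 arrays, so it entered the tested genes only through PA. Its call with PA is therefore not independent of the filter. Blocked by slide, H2afx was -0.27 (limma, adjusted p = 0.249). Of 25 histone chaperones Mms22l rose with PA by 0.31 ± 0.04 (limma, adjusted p = 0.00349), and Asf1b, which hands H3 and H4 to the replication fork, and Tonsl fell, at -0.32 ± 0.05 (limma, adjusted p = 0.00792) and -0.23 ± 0.05 (limma, adjusted p = 0.028). The 1 of 25 that rose and the 2 that fell stand beside 4.88% and 3.73% of all genes. For PA plus FABP4 against FABP4, Chaf1b at 0.21 ± 0.05 and Mms22l at 0.21 ± 0.04 rose (limma, adjusted p = 0.0388 and 0.027), and no chaperone fell. Of all genes 2.86% were higher and 0.943% lower there. With slide as a block Chaf1b, Mms22l and Ubn1 passed as higher in that comparison, beside 2.77% of all genes.

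**Figure D4:**
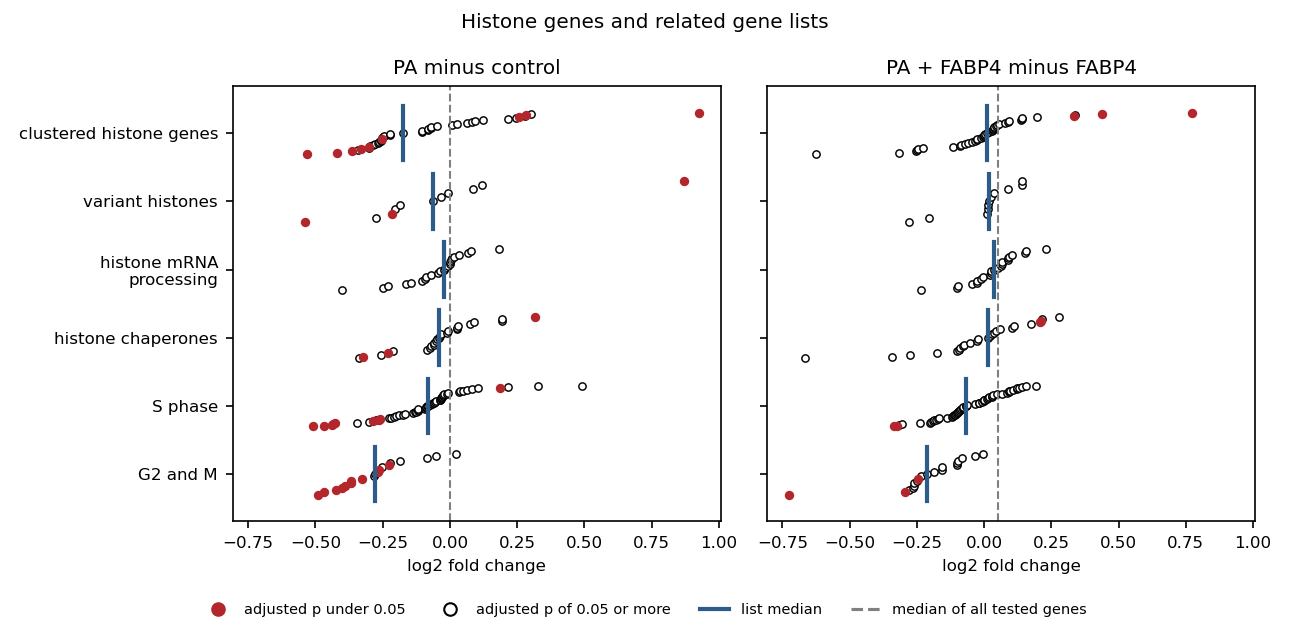
Log2 fold change (limma) of each tested gene in the histone and related lists for PA minus control (left) and PA plus FABP4 minus FABP4 (right), filled where the adjusted p was under 0.05, with the list median as a vertical bar and the median of all tested genes as a dashed line. The G2 and M list has its median at -0.28 on the left and -0.21 on the right, beside -0.17 and 0.01 for the clustered histone genes.

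Lists of cell cycle genes were read in the same comparisons. Of 56 S phase genes 1 rose and 8 fell with PA against control (4.88% and 3.73% of all genes), with a median log2 fold change of -0.08. E2f2, a transcription factor of the G1 to S step, was -0.51 ± 0.06 (limma, adjusted p = 0.00124), Ccna2, cyclin A2, was -0.47 ± 0.07 (limma, adjusted p = 0.00537), and Tk1, thymidine kinase, was -0.44 ± 0.07 (limma, adjusted p = 0.00537). Of 19 genes of G2 and mitosis 11 fell and none rose (the same shares of all genes), with a median of -0.28. Ccnb1, cyclin B1, was -0.37 ± 0.06 (limma, adjusted p = 0.00565), Cdc20, an activator of the anaphase-promoting complex, -0.37 ± 0.06 (limma, adjusted p = 0.00792) and Birc5, survivin, -0.39 ± 0.07 (limma, adjusted p = 0.00822). In bulk samples fewer cells in a phase and less RNA per cell cannot be told apart.

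In PA plus FABP4 against FABP4 the S phase list had 2 genes lower, Ccna2 and Tk1, and none higher, with a median of -0.07, and the G2 and mitosis list 3 lower, Ccnb1, Bub1b and Ttk, and none higher, with a median of -0.21, beside 0.01 for the clustered histone genes. Of all genes 0.943% were lower and 2.86% higher in this comparison. No gene of these lists passed for FABP4 against control or PA plus FABP4 against PA. With slide as a block no S phase, mitosis, variant histone or chaperone gene and no macrophage marker passed for PA against control, where the medians were 0.03 for S phase and -0.08 for G2 and mitosis. In the same fit Ccnb1 passed as lower for PA plus FABP4 against FABP4, at -0.24 ± 0.05 (limma, adjusted p = 0.0401). The part of cell cycle phase in the histone values was not tested. Among the macrophage markers Cd68 rose by 0.26 ± 0.06 (limma, adjusted p = 0.0195) and Itgam was -0.34 ± 0.06 (limma, adjusted p = 0.0104) for PA against control, with a median of 0.00 over the 11, and with slide as a block their adjusted p were 0.246 and 0.462. For PA plus FABP4 against FABP4, Cd68 at 0.35 ± 0.06 and Csf1r at 0.26 ± 0.05 passed as higher (limma, adjusted p = 0.00906 and 0.0208). No marker passed as lower there, and the median was 0.00. With slide as a block the adjusted p of Cd68 and Csf1r in limma were 0.0213 and 0.0254.

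The members' promoters were read from RefSeq on GRCm38.p6, over the 250 bases before each gene's start and on both strands. All 41 members were matched to a RefSeq gene and 36 had a promoter in the table. The octamer ATTTGCAT, the site read by Oct1 in H2B promoters, was in 11 of 36 (30.6%), against 1.6% of 32851 promoters. It was in all 5 H2B and 6 of 13 H2A promoters and in none of the H1, H3 and H4 promoters. CCAAT was in 29 of 36 (80.6%), against 33.8% of all promoters, and in 2 of 8 H4 promoters. TATAAA was in 17 of 36 (47.2%), against 12.4% of all promoters. Matches of different motifs can share letters, and whether they did was not checked. A match is a description and not a site. The 250 bases before the start of Hist1h1c (now named H1f2), the member with the widest difference between the groups, are printed 5′ to 3′ with CCAAT in capitals (GRCm38.p6, chr13:23738557-23738806, plus strand).
Hist1h1c: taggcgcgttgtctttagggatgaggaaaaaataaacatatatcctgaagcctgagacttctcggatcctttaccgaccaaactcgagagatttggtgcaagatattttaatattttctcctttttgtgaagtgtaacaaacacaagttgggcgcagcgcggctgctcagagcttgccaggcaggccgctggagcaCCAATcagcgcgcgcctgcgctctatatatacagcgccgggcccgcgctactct
The CCAAT begins at position -54 from the start. Neither the octamer nor TATAAA is among these letters. The search took only the exact letters of each motif. TATA-like stretches spelled otherwise, such as the run of alternating t and a near the end of the printed letters, were not counted. Hist1h1c was 1 of 10 members with CCAAT alone of the 3 motifs, among them Hist2h2aa1, higher with PA, and Hist1h2ag, lower with PA.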

How the data were processed

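The deposited files hold, per the file headers, Agilent Feature Extraction 10.7.3.1 spot intensities of 12 one-colour (Cy3) arrays with probe coordinates on mm9, labelled from 50 ng of total RNA per the labels' protocols. The sources used here do not give the labelling primer. The processed intensity, which the authors' scanner software had background-corrected per the file headers, equalled the deposited value table to within 0.005. Control and outlier spots were left out, spots of a probe were averaged, log2 values were taken relative to each array's 75th percentile, and genes were fitted over all 12 arrays in limma 3.58.1 (R 4.3.3), two-sided, with Benjamini-Hochberg adjustment over 17595 genes. The number of arrays limits the precision: the SE of log2 fold changes had a median of 0.084, for a 95% interval of ±0.186. The fits were tested on simulated data. Figures used matplotlib.

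The members, gene lists and tests were chosen with earlier results of these data known. Values per array are given for the members that passed in any comparison, the 4 with the smallest p in each comparison and the one with the smallest p in each class; Hist1h1a, Hist1h1e, Hist2h2aa2 and Hist2h3c2-ps were added after their values were seen. Alternatives covered scaling, background correction, filters, probes, slide, replicate number, samples fitted, moderation and leaving out arrays. Coordinates of the Hist1h2ag probe are not given, since the files list a span longer than the probe.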

Additional observations from a re-analysis of the deposited data

How the results depend on the processing

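For palmitic acid without FABP4 the main count of 9 histone genes became 19 after quantile normalization, 16 with the percentile over probes above background on all arrays, 18 with trended robust moderation, 2 with the replicate block, and 1 with no filter on dim probes, with slide as a fixed block, with slide as a random block or with only the groups compared in the fit. Leaving out 1 array gave 1 to 15. For palmitic acid with FABP4 the main count of 3 became 1 with no filter or with only the groups compared, and 1 to 3 without 1 array. For FABP4 without palmitic acid the count of 0 became 1 with slide as a fixed block and 1 without the 2 FABP4 arrays of slide 2 (a setting added once the data had been seen), in both cases Hist1h1e. The counts for FABP4 with palmitic acid and for the interaction stayed at 0 in every alternative run. Leaving arrays or groups out of the fit removes residual degrees of freedom, and dropping the filter adds dim genes to the adjustment. Why the counts changed was not tested for any setting. Over the named genes and alternatives, 596 values kept their direction and their side of the threshold, 125 fell short of it, 9 newly passed it (8 of them Hist3h2a with FABP4 present) and 2 changed sign: with no scaling between arrays Hist1h4k was 0.01 and Hist1h3d 0.03 for FABP4 against control, neither passing in either fit. Hist1h1c passed for palmitic acid without and with FABP4 in every alternative run over these 2 comparisons. The replicate number did not pair the arrays: over 18 same-numbered pairs the correlation of deviations from the group means ran from -0.076 to 0.165, with 1 over 0.1, and over 36 other pairs from -0.173 to 0.162. With the replicate block Hist1h1c and Hist1h4j passed for palmitic acid without FABP4, and Hist1h1c and Hist2h2aa1 with FABP4. Dim probes limit Hist1h2bb and Hist1h3a, which some arrays did not measure above background.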
